A study of Mus musculus with 55 samples.

Results

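Livers of 14 of the 55 mice of the series were compared by the founder haplotype that their Collaborative Cross (CC) line carries at the Gsta2 locus. CC mice are recombinant inbred, and all lines descend from the same 8 founder strains, so that each line is a mosaic of founder segments. The mice of a line are largely alike genetically. The authors give a range of inbreeding generations, and mice of a line may still differ at some segments. Of the 29 lines, 4 lines with 7 mice carry the PWK haplotype, namely IL-1452 (1 mouse), IL-2126 (1 mouse), IL-2156 (3 mice) and IL-2680 (2 mice). Another 4 lines with 7 mice carry the A/J haplotype, namely IL-1061 (2 mice), IL-1141 (1 mouse), IL-2011 (2 mice) and IL-3912 (2 mice). The mice were untreated males, and polyadenylated RNA of whole liver was sequenced. PWK lines were 9.9 to 11.9 weeks old and weighed 17.8 to 38.0 g, whereas A/J lines were 8.3 to 10.0 weeks old and weighed 17.7 to 26.9 g. Age therefore moves with the haplotype. The haplotypes were read by eye from the founder assignment published for this locus and were not checked against genotypes. This bears above all on IL-1452, whose values at several genes tied to chromosome 9 were unlike those of the other PWK lines, and the counts of calls are therefore also given without it. The locus was chosen for its association with a Gsta2 trait in these same mice. Founder segments elsewhere in the genome were not analysed here, so with 4 lines a group a difference at any gene cannot be told apart from segments that the lines of a group share by chance.

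Gsta2 encodes an alpha class glutathione transferase. These enzymes join glutathione to electrophilic drugs, carcinogens and products of lipid peroxidation, which makes them easier to excrete, and hepatocytes are rich in them. In the mouse most alpha class genes lie together on chromosome 9. A variant near a gene can change its own expression or its splicing, called a local effect, whereas an effect on genes elsewhere is called distant. The comparison asked which genes, near Gsta2 and elsewhere, differ between lines with a PWK and with an A/J segment at this locus.

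Expression was measured as FPKM, fragment numbers scaled for transcript length and for sequencing depth, which can be compared between genes per length, and differences were taken between line means of log2(FPKM + 1). This scale understates the difference of genes with a low FPKM. The 14 mice had 20.5 to 30.3 M estimated fragments each. Of 37620 genes in the files, 11284 reached an FPKM of 2 in at least 1 of the 55 mice. Of them, 11240 were above 0 in at least 1 of the 14 mice and were tested with limma over the 8 lines. An exact permutation test over the 70 arrangements of 4 lines against 4 cannot give a two-sided p below 0.0286, which is reached when the line means of the groups do not overlap. Of 11 fixed marker lists (hepatocytes, blood and other liver cells, and pancreas, fat and muscle), none had a summed FPKM that was higher or lower in every PWK line than in every A/J line, and no marker passed the limma test. The hepatocyte sum was 30706 to 57142 FPKM in PWK lines and 42051 to 55595 FPKM in A/J lines. The pancreas sum was 11.7 to 35.9 FPKM in PWK lines and 17.9 to 24.2 FPKM in A/J lines, most of it Cela1, while Prss1 was at 0 in every line. Muscle stood out in 1 of the 2 mice of the A/J line IL-3912, with 639.47 FPKM of Acta1 and 291.7 FPKM of Ckm, against at most 1.72 and 0.81 FPKM in all mice of the other 7 lines. Without IL-3912 limma called 1 gene, as with it, the Gm13456 described next (adjusted p = 0.0110). In bulk liver, fewer cells of a type and less RNA per cell cannot be told apart.

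The gene with the clearest difference was not at the locus. Gm13456, an annotated pseudogene on chromosome 2 (40411272 to 40412636, plus strand), rose by 6.33 ± 0.32 (SE, log2 scale) in PWK lines (limma, Benjamini-Hochberg adjusted p = 0.000485). It was the only one of the 11240 genes with an adjusted p under 0.05, 0.00890% of the genes tested, and edgeR also called 1 gene. At an unadjusted p under 0.05, limma gave 344 genes (3.06%) and edgeR 588. Gm13456 is a processed copy of Eef1a1, which encodes the factor that delivers aminoacyl-tRNA to the ribosome. Eef1a1 starts at 0.15 Mb from Gsta2, where a negative distance means the side with lower coordinates (chromosome 9, 78326256 to 78336958, minus strand). A processed copy arises when a spliced transcript is reverse transcribed and inserted elsewhere, and so keeps the exons of its parent without the introns. Another pair of annotated copies, Gm6548 (chromosome 17, 79250132 to 79251296, minus strand) and Gm6767 (chromosome 16, 51362565 to 51363945, minus strand), also match Eef1a1 best. Over the 1386 coding bases of Eef1a1, Gm13456 differed at 19 of 1361 aligned bases, Gm6548 at 36 of 1163 and Gm6767 at 47 of 1378. The stretch of 120 bases where they differ most (coding bases 839 to 958 of ENSMUST00000042235, in its coding exon 5) is printed from the reference genome, NCBI build 37, to show how little separates them. Capitals in Eef1a1 mark its 10 bases at which any copy differs, and capitals in a copy mark its own differences from Eef1a1.
Eef1a1, chr9:78327156-78327275, minus strand: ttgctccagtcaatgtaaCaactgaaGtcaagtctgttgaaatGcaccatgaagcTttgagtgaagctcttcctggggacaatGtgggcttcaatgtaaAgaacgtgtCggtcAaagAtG
Gm13456, chr2:40412085-40412204, plus strand: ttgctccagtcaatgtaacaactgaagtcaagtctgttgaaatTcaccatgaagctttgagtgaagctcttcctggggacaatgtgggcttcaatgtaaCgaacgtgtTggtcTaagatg
Gm6548, chr17:79250560-79250679, minus strand: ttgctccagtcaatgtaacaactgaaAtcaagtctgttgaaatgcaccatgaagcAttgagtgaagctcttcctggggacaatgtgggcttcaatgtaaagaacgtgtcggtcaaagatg
Gm6767, chr16:51362994-51363113, minus strand: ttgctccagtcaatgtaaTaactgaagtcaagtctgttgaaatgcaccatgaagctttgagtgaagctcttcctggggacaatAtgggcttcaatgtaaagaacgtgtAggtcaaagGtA
In this stretch Gm13456 holds 4 of its own differences, Gm6548 holds 2 and Gm6767 holds 5. RSEM shares fragments that fit more than 1 sequence by maximum likelihood, so that the value of a copy is less certain than that of a unique gene. How many read pairs fit several of the 4 sequences was not tested.

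In PWK mice Gm13456 was measured at 41.27 FPKM in IL-1452, 135.35 in IL-2126, 91.54, 98.14 and 113.5 in IL-2156 and 105.99 and 84.72 in IL-2680. In A/J mice it was at 0.13 and 0.04 FPKM in IL-1061, 0 in IL-1141, 0.18 and 0.05 in IL-2011 and 0.1 and 0.14 in IL-3912. The groups were far apart, with 1359.9 to 3893.2 estimated fragments per PWK mouse and 0 to 6.4 per A/J mouse. Gm6548 was the next gene by p-value. Its line means were 23.54, 64.64, 51.53 and 40.085 FPKM in PWK lines (IL-1452, IL-2126, IL-2156 and IL-2680) and 5.34, 1.83, 1.715 and 3.62 FPKM in A/J lines (IL-1061, IL-1141, IL-2011 and IL-3912), which do not overlap. The difference of 3.48 ± 0.37 did not pass limma (adjusted p = 0.0762). With the 14 mice as units and the line as a random block it did, and 2 genes were then called, Gm13456 and Gm6548. Gm6767, chosen after its values were seen, was at 3.71 ± 4.71 FPKM in PWK lines (SD, n = 4 lines) and 0.029 ± 0.027 FPKM in A/J lines, with a limma adjusted p of 0.982.

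The parent gene itself differed little. Eef1a1 was expressed at 1996 ± 416 FPKM in PWK lines and 2143 ± 242 FPKM in A/J lines (SD, n = 4 lines), a difference of -0.12 ± 0.22 on the log2 scale (limma adjusted p = 0.984). Of the fragments given to Eef1a1 and its 3 copies together, the copies took 4.79% ± 1.60 in PWK lines (SD, range 2.40 to 5.81) and 0.0992% ± 0.0590 in A/J lines (SD, range 0.0555 to 0.183). The sum of the 4 genes was 3622 ± 794 per M fragments in PWK lines and 3671 ± 411 per M fragments in A/J lines (SD, n = 4 lines each, two-sided exact permutation test, p = 0.914). The groups differed in the share of fragments given to the copies, and a difference in the sum of the 4 genes was not detected. Most of the sum was Eef1a1, and the copies took at most 5.81% of it, less than its spread between lines. The sum could therefore not show whether the copies added to it. Whether the fragments given to Gm13456 and Gm6548 came from these copies or from a PWK allele of Eef1a1 was not tested, since reads and variants were not used.

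**Figure D1:**
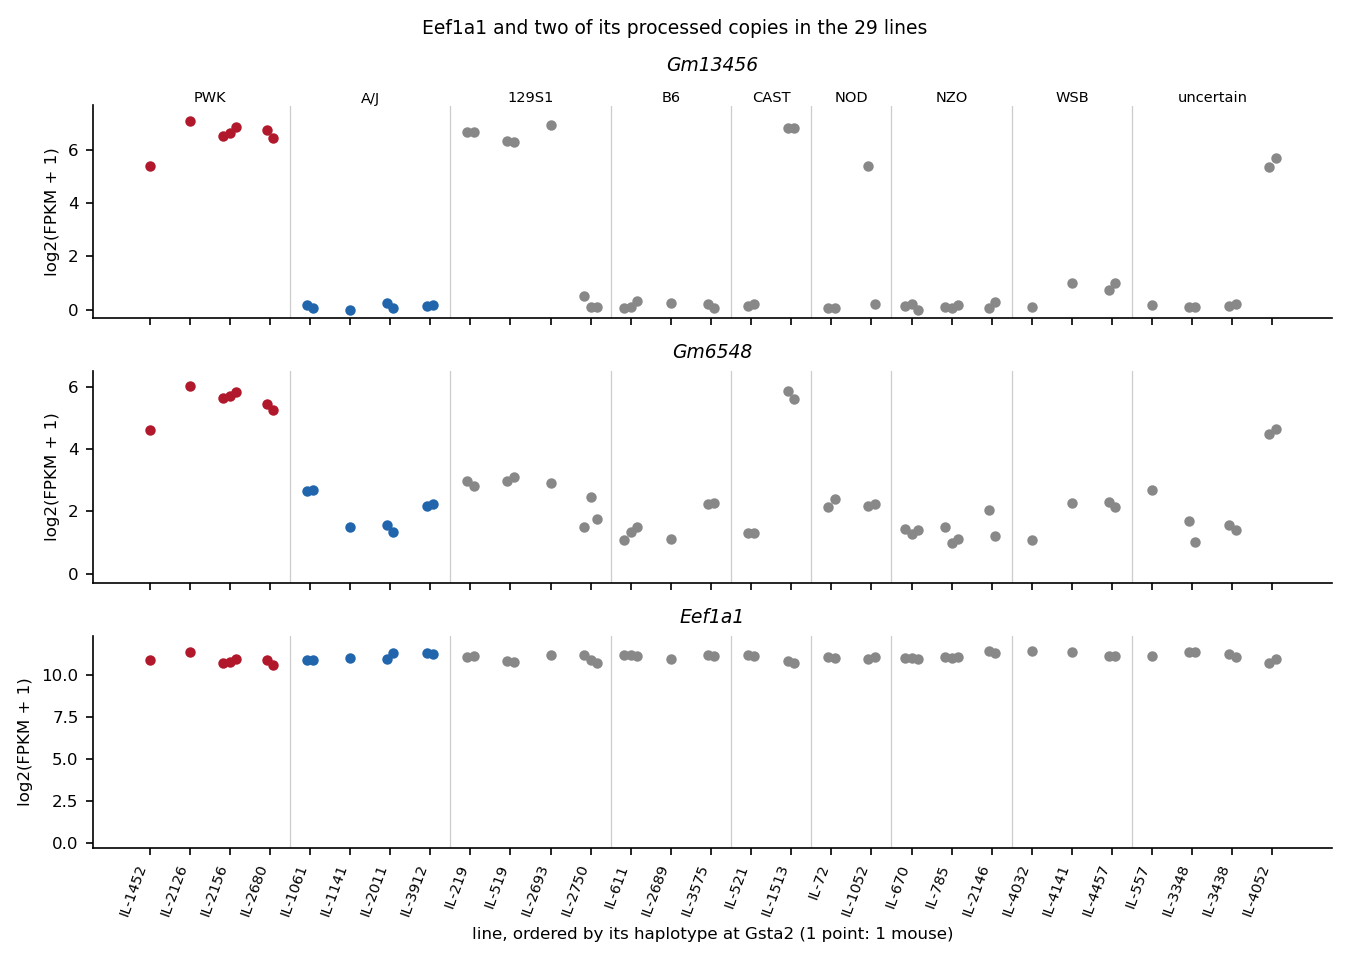
Expression of Gm13456, Gm6548 and Eef1a1 as log2(FPKM + 1) (vertical axes), with 1 point per mouse, in the 29 lines ordered by their haplotype at Gsta2 (horizontal axis; red PWK, blue A/J, grey other or uncertain haplotypes). All 7 PWK mice lie far above all 7 A/J mice for Gm13456 and Gm6548 but not for Eef1a1, and a few lines with other haplotypes reach the PWK level.

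Lines outside the comparison give the same genes in other backgrounds. Of the other 21 lines, 5 had a mean of Gm13456 at or above the lowest PWK line (41.3 FPKM). Of these, IL-219 (99.95 FPKM), IL-2693 (121.36 FPKM) and IL-519 (78.24 FPKM) share the haplotype of another classical inbred founder at Gsta2, IL-1513 (112.54 FPKM) carries CAST, and the haplotype of IL-4052 (44.89 FPKM) was uncertain. Lines with the same labels could lack it, since IL-2750, with the haplotype of the same classical founder, had 0.42, 0.07 and 0.07 FPKM in its 3 mice and IL-521 (CAST) had 0.09 and 0.16 FPKM. The mice of IL-1052 (NOD) differed from each other, with 40.84 and 0.15 FPKM. Gm6548 reached the lowest PWK line (23.5 FPKM) in 1 of the 21 lines, IL-1513, at 52.73 FPKM. In IL-219, IL-2693 and IL-519 it was at 6.42, 6.46 and 7.19 FPKM. A high level of Gm13456 was therefore not particular to the PWK haplotype at Gsta2.

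Every tested pseudogene was then aligned to the coding transcripts, a step chosen after Gm13456 had been seen. Of 386 tested genes annotated as pseudogenes, 340 matched a coding transcript with at least 90% identity over at least 50% of the copy. The line means of 234 of the 11240 genes did not overlap between the groups (2.08%), with 98 higher in PWK lines (0.872%) and 136 lower (1.21%). Only 3 of the 340 copies have their parent within 5 Mb of Gsta2, which are the copies of Eef1a1, and all 3 were higher in every PWK line than in every A/J line. Of 24 copies with a parent elsewhere on chromosome 9, none was higher in this way and 1 was lower, and of 313 with a parent on another chromosome 1 was higher and 4 were lower. Whether or not line means overlapped, 9 of the 24 and 48 of the 313 differed by at least 1 on the log2 scale in either direction. The 3 copies of Eef1a1 share a parent and fragments, and are not independent of each other. For Gm6767 the lack of overlap rests on very few fragments. It had 3.0 in the PWK line IL-1452 (0.09 FPKM) and 2.1 in the A/J line IL-1141 (0.06 FPKM). The lower copy with a parent elsewhere on chromosome 9 was Gm11868, which matches Cyb5r4 and itself lies on chromosome 4. Gm11868 was at 1.88 ± 0.371 FPKM in PWK lines and 3.34 ± 0.120 FPKM in A/J lines (SD, n = 4 lines, limma adjusted p = 0.982).

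**Figure D2:**
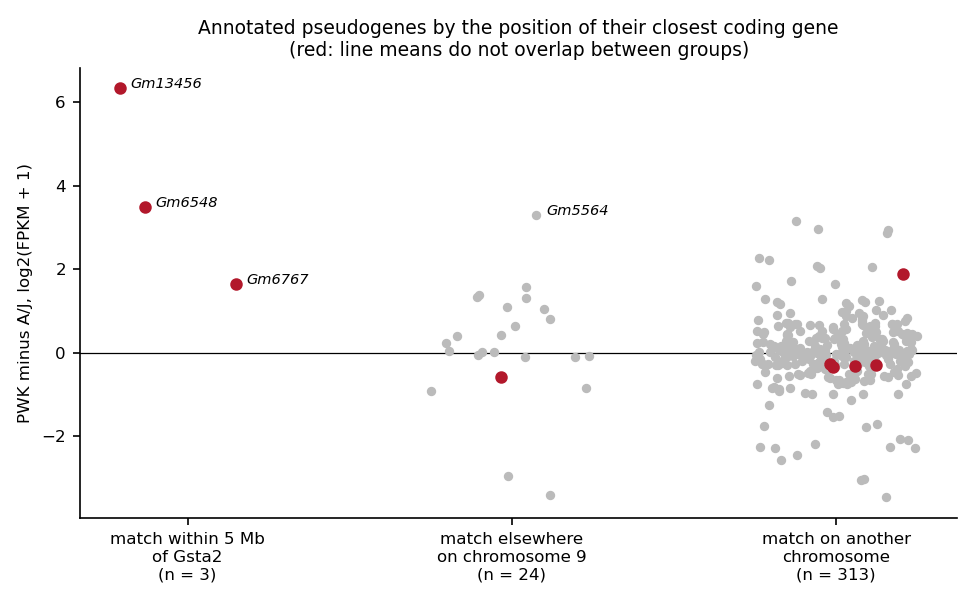
Difference between PWK and A/J lines in log2(FPKM + 1) (vertical axis) for the 340 tested pseudogenes with a coding match, by the position of the matched gene (horizontal axis; points are spread sideways within a class). The 3 copies of Eef1a1 are at 6.33, 3.48 and 1.65, and red marks genes whose line means do not overlap between the groups.

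IL-1452, with 1 mouse, stood apart from the other PWK lines. Its Gm13456 was the lowest of the PWK lines, and Gm6767 was at 0.09 FPKM. Gm5564, a copy of Morf4l1 on chromosome 5, was chosen after its values were seen. It was at 0.06 FPKM in IL-1452, as low as in the A/J mice (0 to 0.10 FPKM), and at 14.63 to 26.88 FPKM in the 6 mice of the other PWK lines. Without IL-1452 its difference was 4.39 ± 0.18 (SE, log2 scale). Morf4l1 encodes a chromatin protein and starts at 11.81 Mb from Gsta2 on chromosome 9. Without IL-1452, limma called 4 genes, all annotated as pseudogenes. These were Gm13456 (adjusted p = 8.04e-06), Gm5564 (adjusted p = 0.000275), Gm4835, another copy of Morf4l1 (adjusted p = 0.00279), and Gm6548 (adjusted p = 0.0307). IL-1452 was singled out by its values at some of these genes, so the calls without it are no independent support. Morf4l1 itself was at 79.4 ± 15.6 FPKM in PWK lines and 100.7 ± 8.21 FPKM in A/J lines (SD, n = 4 lines), with a limma adjusted p of 0.982.

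At the Gsta2 locus itself, no gene passed the limma test. Within 5 Mb of Gsta2, 29 genes were tested and 5 had an unadjusted p under 0.05, which 3.06% of all genes reached. Gsta2 (chromosome 9, 78178825 to 78203595, minus strand) was at 49.76 FPKM in IL-1452, 134.72 in IL-2126, 28.67, 22.83 and 6.37 in IL-2156 and 88.43 and 80.61 in IL-2680. In A/J mice it was at 55.78 and 48.98 FPKM in IL-1061, 49.55 in IL-1141, 8.45 and 19.27 in IL-2011 and 12.31 and 24.47 in IL-3912. The groups overlapped, with the PWK line IL-2156 among the low A/J lines. The means were 72.1 ± 49.5 and 33.5 ± 20.2 FPKM (SD, n = 4 lines), a log2 difference of 0.97 ± 0.70 (SE; two-sided exact permutation test, p = 0.286). The difference was 0.55 without IL-2126 and 1.54 without IL-2156, so that the spread between lines of a group was as large as the difference.

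Gsta4, whose enzyme clears 4-hydroxynonenal, a product of lipid peroxidation, starts at -0.14 Mb from Gsta2 and was higher in every PWK line. It was at 79.37 FPKM in IL-1452, 229.25 in IL-2126, 97.31, 94.37 and 45.2 in IL-2156 and 92.3 and 94.52 in IL-2680. The A/J mice had 52.64 and 51.36 FPKM in IL-1061, 59.93 in IL-1141, 42.35 and 55.66 in IL-2011 and 49.66 and 74.32 in IL-3912. Line means did not overlap, although the lowest mouse of IL-2156 lay among the A/J mice. The log2 difference was 0.94 ± 0.34 (SE), with a limma adjusted p of 0.982, and it was 0.57 without IL-2126, so that 1 mouse carries a large share of it. Gm10639, an annotated alpha class gene between Gsta4 and Gsta2, was at 7.20 ± 4.94 FPKM in PWK lines and 0.912 ± 0.883 FPKM in A/J lines (SD, n = 4 lines each, two-sided exact permutation test, p = 0.0571). On the log2 scale, the lowest PWK line, IL-2156, lay just below the highest A/J line, IL-1061.

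The remaining alpha class genes overlapped between the groups. Gsta1 was at 5.995 ± 2.59 FPKM in PWK lines and 6.37 ± 4.73 FPKM in A/J lines (SD, n = 4 lines), and the sign of its log2 difference of 0.05 ± 0.58 (SE) changed with the method. Gm3776, a close paralog, had a log2 difference of -1.0 ± 0.78 (SE; two-sided exact permutation test, p = 0.286). Its highest line means were those of the A/J lines IL-1061 and IL-1141, at 14.535 and 11.65 FPKM. Gsta3, on chromosome 1 and the most expressed of the 6 genes, was at 1050 ± 503 and 713 ± 198 FPKM (SD, n = 4 lines). Since Gsta1, Gsta2, Gm3776 and Gm10639 are similar in sequence, their estimates share fragments and are less certain than that of a unique gene.

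**Figure D3:**
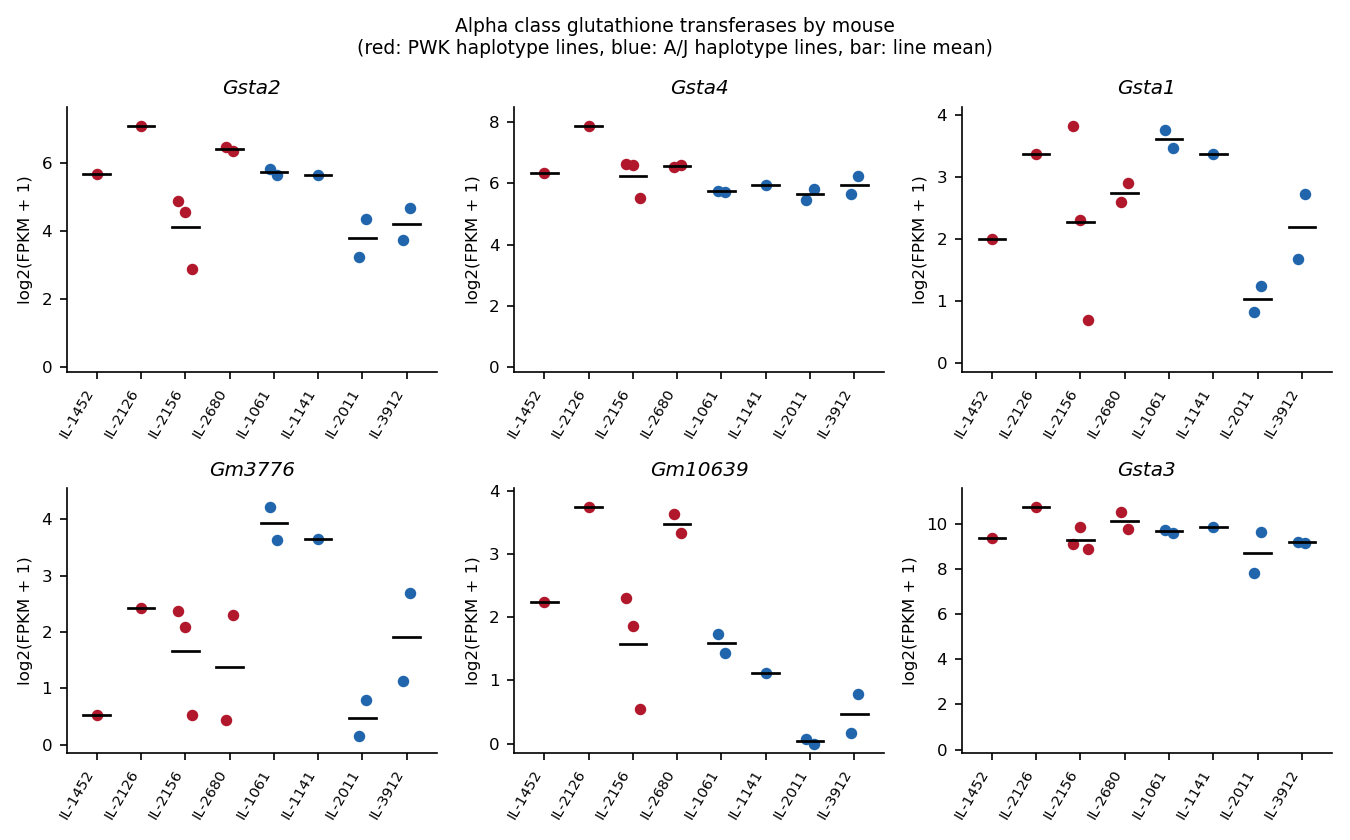
Expression of the 6 alpha class genes as log2(FPKM + 1) (vertical axes) in each mouse (points) by line (horizontal axes), with a bar at the line mean. Only for Gsta4 are all 4 PWK line means (red) above all 4 A/J line means (blue), and IL-2126 has the highest PWK line mean of each of the 6 genes.

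Line means did not overlap for 3 of the 29 genes near Gsta2 (10.3%), against 2.08% of all genes tested. Besides Gsta4 these were Lysmd2, which encodes a protein with a LysM domain, and Mto1, which encodes an enzyme that modifies mitochondrial tRNAs. Lysmd2 was at 0.87, 2.08, 2.407 and 2.025 FPKM in the PWK lines and 0.37, 0.30, 0.335 and 0.665 FPKM in the A/J lines (in the order of lines used for Gm6548). All A/J line means were below the lowest PWK line, IL-1452, but 1 mouse of IL-3912 (0.92 FPKM, 31 fragments) was above the mouse of IL-1452 (0.87 FPKM, 25 fragments). The log2 difference was 0.96 ± 0.20 (SE, limma adjusted p = 0.982). Mto1, 0.12 Mb from Gsta2, was at 4.95 ± 0.691 FPKM in PWK lines and 7.01 ± 0.614 FPKM in A/J lines (SD, n = 4 lines), a log2 difference of -0.43 ± 0.12 (SE). Gclc, which encodes the catalytic subunit of the enzyme that starts glutathione synthesis and also lies near Gsta2, overlapped between the groups at 58.5 ± 7.82 and 83.1 ± 23.9 FPKM (SD, n = 4 lines). So did Elovl5, a fatty acid elongase gene, at 158 ± 5.95 and 149 ± 58.7 FPKM. Both were chosen after their values were seen.

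The share of genes without overlap was 11.1% within 2.5 Mb of Gsta2 (2 of 18), 10.8% within 10 Mb (7 of 65) and 4.71% over chromosome 9 (28 of 595). Outside the 5 Mb window it was 4.42% on chromosome 9 (25 of 566) and 2.06% over the genome (231 of 11211). Chromosome 9 had the highest share of any chromosome, followed by chromosome 8 with 2.86%. Neighbouring genes on shared founder segments are not independent, and these shares are given without a test. Reads of all lines were aligned to the same reference. Whether founder variants changed the fragments counted for a gene or an isoform was not tested. The median absolute difference within 5 Mb was 0.25, against 0.14 over all genes, for which the median SE was 0.19. Of the 28 genes on chromosome 9, 9 were higher and 19 were lower in PWK lines. The genes were not all near the locus, since 6 of 38 genes between -22.5 and -17.5 Mb from Gsta2 did not overlap. Among these 6 were 2410076I21Rik, described with the genes outside the window, and Pml, the scaffold gene of nuclear bodies, at 1.88 ± 0.244 FPKM in PWK lines and 3.73 ± 0.926 FPKM in A/J lines (SD, n = 4 lines, limma adjusted p = 0.982). Farther out, Bco2, a carotenoid-cleaving enzyme gene at -27.84 Mb from Gsta2, was at 8.18 ± 2.00 and 4.22 ± 0.827 FPKM (SD, n = 4 lines, limma adjusted p = 0.982). Pml and Bco2 were chosen after their values were seen.

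**Figure D4:**
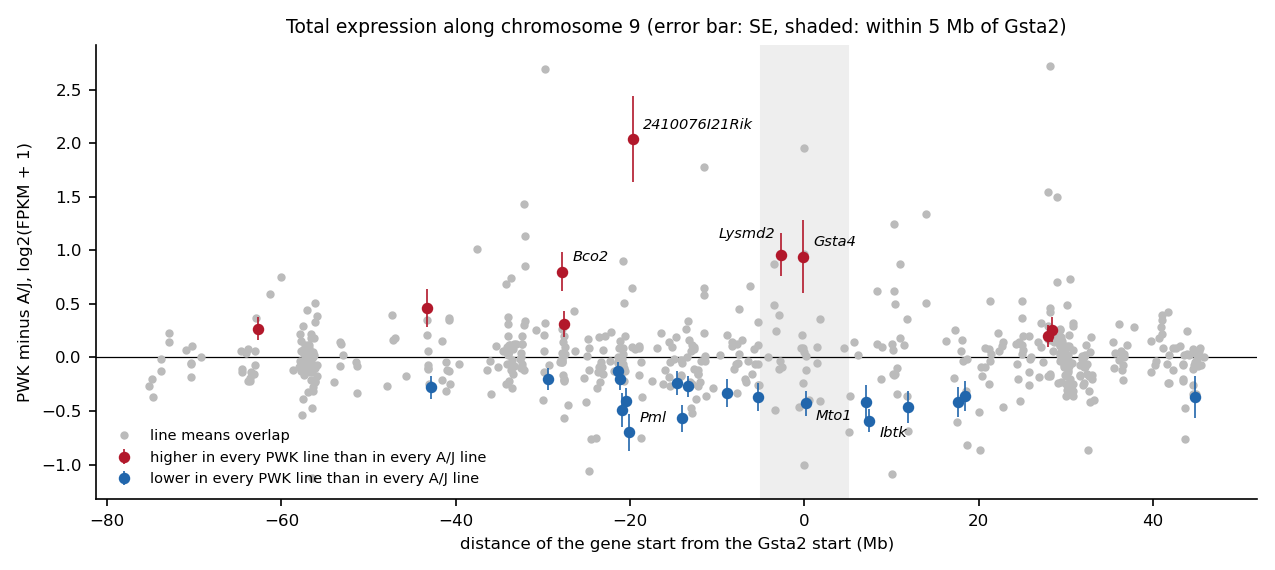
Difference between PWK and A/J lines in log2(FPKM + 1) (vertical axis, error bars SE) of the genes tested on chromosome 9, by the distance of their start from the start of Gsta2 in Mb (horizontal axis). Line means of coloured genes do not overlap between groups (28 of 595), and 3 of the 28 lie within the shaded 5 Mb, where Gsta4 and Lysmd2 are higher and Mto1 is lower in PWK lines.

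Outside the window, the 5 genes with the smallest p in each direction had line means that did not overlap, and of these only Gm13456 passed the limma test. The other named genes except Gm6548 had an adjusted p of 0.982. Among the higher genes, Ugt2b37, one of the Ugt2b glucuronosyltransferases, was at 11.23, 19.28, 10.187 and 7.88 FPKM in PWK lines and 0.585, 0.70, 2.90 and 1.32 FPKM in A/J lines. Its log2 difference was 2.30 ± 0.40 (SE), and its fragments are shared with close paralogs. Lect2, which encodes a cytokine secreted by hepatocytes, was at 143 ± 28.4 FPKM in PWK lines and 63.8 ± 15.7 FPKM in A/J lines (SD, n = 4 lines), 2.24 times higher, and its log2 difference of 1.14 ± 0.24 (SE) was 0.61 with age as a covariate. 2410076I21Rik, a gene without an established role here, lies at -19.68 Mb from Gsta2 on chromosome 9 and was at 7.44 ± 5.89 and 0.751 ± 0.442 FPKM (SD, n = 4 lines). The lowest PWK line of each gene was above the highest A/J line, but single mice could overlap. For Ugt2b37 the mice of IL-2156 had 22.63, 7.4 and 0.53 FPKM, the last below every A/J mouse (0.54 to 2.97 FPKM).

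Among the lower genes, Ibtk, named for an inhibitor of Bruton tyrosine kinase and 7.40 Mb from Gsta2, was at 7.65, 9.01, 7.023 and 7.64 FPKM in PWK lines and 12.06, 12.67, 11.235 and 13.195 FPKM in A/J lines. The log2 difference was -0.59 ± 0.11 (SE). Nox4, which encodes an NADPH oxidase that produces hydrogen peroxide, was at 6.86 ± 0.795 FPKM in PWK lines and 11.3 ± 1.60 FPKM in A/J lines (SD, n = 4 lines). Cyp3a59, a cytochrome P450 gene with close paralogs, was at 9.66 ± 2.90 and 21.8 ± 4.85 FPKM, and its log2 difference of -1.12 ± 0.22 (SE) was -0.61 with age as a covariate. Commd5, a member of a family that takes part in endosomal sorting, was at 6.94 ± 0.840 and 10.5 ± 0.528 FPKM, and Gm11711 at 0.0680 ± 0.0790 and 1.28 ± 0.530 FPKM, with 0 to 5.2 fragments per PWK mouse. DESeq2, an alternative on summed counts, called 52 of 10854 genes (0.479%), among them 9 of these 10 genes, all but Commd5.

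Pathway lists were described by counts. Of 26 glutathione transferase genes, 22 were tested and none was called by limma, while DESeq2 called Gstk1 (adjusted p = 0.0194). The median log2 difference was 0.39 with 17 of 22 above 0, against a median of 0.017 over all genes. Members that lie together, such as the Gstm genes on chromosome 3, are not independent of each other. At an unadjusted p under 0.05, which 3.06% of all genes reached, 2 of the 22 were higher (Gsta4 and Gstk1) and Gstm4 was lower. Gstk1, the kappa class enzyme of mitochondria and peroxisomes, was at 291.42, 274.18, 93.263 and 202.99 FPKM in PWK lines and 85.005, 90.09, 78.43 and 73.83 FPKM in A/J lines. The lowest PWK line, IL-2156, was close to the highest A/J line. Of 25 glutathione and antioxidant genes 20 were tested, with a median of 0.07, and at an unadjusted p under 0.05 only Aox1, an aldehyde oxidase gene, was lower. Gstk1, Gstm4 and Aox1, like the list members named next, were chosen after their values were seen.

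Of 33 genes that respond to or belong to the drug-sensing receptors CAR, PXR and the Ah receptor, 29 were tested and none was called by limma, while DESeq2 called Cyp3a25 (adjusted p = 0.0273). The median log2 difference was 0.50, with 21 of 29 above 0, against a median of 0.017 over all genes. Neighbouring genes of a family, such as Cyp2b9, Cyp2b10 and Cyp2b13 on chromosome 7, are not independent members of the list. At an unadjusted p under 0.05, which 3.06% of all genes reached, 3 were higher (Cyp2b10, Cyp1a2 and Sult1e1) and Cyp3a25 was lower. Cyp2b10, the classical target of CAR, was at 25.2 ± 14.1 FPKM in PWK lines and 4.40 ± 6.19 FPKM in A/J lines (SD, n = 4 lines each, two-sided exact permutation test, p = 0.0571). Cyp3a25 was lower in every PWK line, at 204 ± 34.3 FPKM against 946 ± 745 FPKM (limma adjusted p = 0.982). The high A/J mean came from IL-1061 (1673.98 FPKM) and IL-1141 (1502.47 FPKM), whereas IL-2011 (273.58 FPKM) and IL-3912 (335.065 FPKM) lay near the PWK lines (160.5 to 240.03 FPKM). In the region of Cyp3a25 itself, the authors give the A/J haplotype for IL-1141 and that of another classical founder for IL-2011, IL-1452 and IL-2126. They also use IL-2156 as a representative line with the haplotype of that other founder, although their list of such lines leaves it out. Whether those segments account for the split was not tested. Of 27 lipid and cholesterol genes 26 were tested, with a median of 0.22 and 22 of 26 above 0, and limma called none.

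Isoform ratios, which give in percent how much of the expression of a gene comes from an isoform, were compared for 32461 isoforms of 7102 genes. With limma no isoform had an adjusted p under 0.05 (0.00%), while 969 (2.99%) had an unadjusted p under 0.05, and line means did not overlap for 563 isoforms (1.73%). Near Gsta2, 7 of 70 isoforms did not overlap (10%), from 4 of 15 genes. Isoforms of 1 gene sum to the whole and are not independent.

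Gsta2 was 1 of the 4 genes, and its isoforms bear on the trait for which the locus was chosen, so their difference is not independent support. Shares are given among annotated isoforms only. The authors report that reads of PWK and CAST lines at this gene are not fully accounted for by annotated isoforms. The main isoform ENSMUST00000034902, whose first exon lies at 78194896 to 78194965, took 97.6% ± 0.245 in PWK lines and 93.6% ± 1.93 in A/J lines (SD, n = 4 lines). Isoform ENSMUST00000125479 begins at an exon farther upstream (78203466 to 78203595) and has an additional exon at 78190294 to 78190404. Its share was 1.88% in IL-1452, 0.46% in IL-2126, 0.41, 1.14 and 2.25% in IL-2156 and 0.78 and 0.66% in IL-2680. In A/J mice it was 3.17 and 3.96% in IL-1061, 3.27% in IL-1141, 3.53 and 10.35% in IL-2011 and 8.88 and 3.55% in IL-3912. Every PWK mouse was below every A/J mouse, and the 2 A/J lines with the least Gsta2 had the highest and most variable shares. The difference of line means was -3.92 ± 1.02 percentage points (SE; two-sided exact permutation test over lines, p = 0.0286; limma adjusted p = 0.965). It rests on few fragments, since Gsta2 had between 122.9 and 2248.6 estimated fragments per mouse. ENSMUST00000129247 took 1.35% ± 0.482 and 1.40% ± 0.356 (SD, n = 4 lines), and ENSMUST00000140498 was at 0 in all 14 mice.

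The other genes near Gsta2 with isoforms whose line means did not overlap were Onecut1, a liver transcription factor gene, Myo6, an unconventional myosin gene, and Mto1. The Onecut1 isoform ENSMUST00000056006 took 85.5% ± 5.17 in PWK lines and 72.4% ± 2.18 in A/J lines, a difference of 13.07 ± 2.63 points (SE). The Myo6 isoform ENSMUST00000113266 took 43.6% ± 4.93 and 29.1% ± 5.46, a difference of 14.51 ± 3.43 points. For Mto1 the differences were 7.70 ± 2.89 and -1.59 ± 0.76 points. Each had a limma adjusted p of 0.965. Single mice overlapped between the groups for each gene. For Onecut1, a mouse of the A/J line IL-3912 was at 83.11%, above the PWK line IL-1452 (80.79%). For Myo6, a mouse of IL-3912 was at 45.88% and a mouse of the PWK line IL-2680 at 28.69%.

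On the same chromosome, Lactb, which encodes a mitochondrial protein, had the pattern of IL-1452 once more. It starts at -11.38 Mb from Gsta2 and was chosen after its values were seen. Its isoform ENSMUST00000116554 took 75.8% ± 31.1 in PWK lines and 6.65% ± 5.74 in A/J lines (SD, n = 4 lines, limma adjusted p = 0.965). The share was 29.49% in IL-1452, between 83.5% and 95.37% in the other PWK mice and between 0% and 20.85% in A/J mice. Without IL-1452 the difference was 84.6 ± 3.88 points (SE, limma adjusted p = 0.0107) and the 2 Lactb isoforms were the called isoforms. Lactb is among the genes at which IL-1452 stood apart, so this call is no independent support. Each mouse had 742 to 1408 fragments of Lactb, and total expression was 21.3 ± 1.47 FPKM in PWK lines and 21.9 ± 2.45 FPKM in A/J lines (SD, n = 4 lines).

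**Figure D5:**
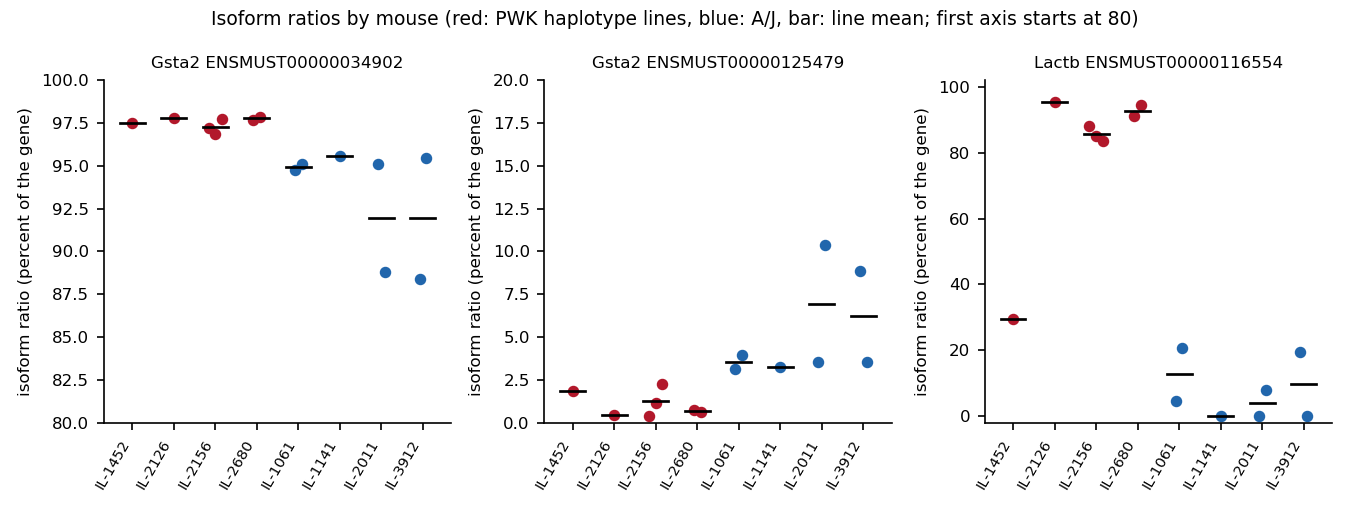
Isoform ratios in percent of the gene (vertical axes, with the axis of the Gsta2 main isoform starting at 80%) of 2 Gsta2 isoforms and 1 Lactb isoform in each mouse (points) by line (horizontal axes), with a bar at the line mean. PWK mice (red) and A/J mice (blue) do not overlap, and IL-1452 is apart from the other PWK lines for Lactb, at 29.49%.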

How the data were processed

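Liver RNA of 55 CC mice was sequenced as paired reads of 50 bases from stranded libraries. The authors aligned the reads to mouse transcripts (NCBI build 37, Ensembl 67) with Bowtie 2 and quantified them with RSEM, version 1.2.18 per the labels. The deposited expected counts are not normalized, and RSEM divided ambiguous fragments between genes and isoforms. The deposited FPKM are scaled for effective length and the fragments of a mouse. The deposited TPM are scaled for effective length to a fixed total. For each isoform the authors also deposited its percent of the gene (isoform ratio). Positions, exons and gene types came from Ensembl release 65 on the same build.

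Lines were grouped by their founder haplotype at Gsta2, read by eye from the published map, and the mean of a line was the unit. Since labels do not separate litters or libraries, the p-values measure the spread between these lines. Line means of log2(FPKM + 1) and of the ratios were tested with limma 3.58.1 (trend for expression only, Benjamini-Hochberg, threshold 0.05). Genes needed a maximum FPKM of 2. Ratios needed at least 10 fragments of the gene and a span of 1 percentage point between line means. Single values were tested by exact permutation over lines. Alternatives changed the pseudocount, filter, unit, window, covariates (age, body weight), tool (edgeR 4.0.16 and DESeq2 1.42.0 on expected counts rounded and summed per line) and lines, and 14 mice with line as a random block. The scripts were tested on simulated data. Pseudogenes were aligned with BLAST 2.17.0. R 4.3.3, Python 3.11.15, pandas 2.3.3, numpy 2.4.6, scipy 1.17.1 and matplotlib 3.10.9 were used.

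Named genes were the Gsta genes with the Gsta2 isoforms, genes within 5 Mb whose line means do not overlap, and the genes called elsewhere, filled to 5 in each direction by the smallest p. Called isoforms and called list members were also to be named, and there were none. Exceptions are stated. The result for 1 list member is not reported here. The lines, lists and rules were chosen with earlier results of these data known. Leaving out pseudogenes, summing Eef1a1 with its copies and the alignment of pseudogenes were added after the data were seen.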

Additional observations from a re-analysis of the deposited data

Results flagged for a closer look

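In groups of 4 lines, a single line was far from the others for 2 of 42 groups examined, where chance gives about 1 in 20. Lysmd2 was at 0.90 on the log2(FPKM + 1) scale in IL-1452, against 1.59 to 1.68 in the other PWK lines, with a gap of 0.888 of the range. Commd5 was at 2.74 in IL-2680, against 3.06 in the other PWK lines, with a gap of 0.991 of the range. Among the 21 lines outside the comparison, 12 had a mean of Gm13456 above every A/J line (0.12 FPKM). Of the 12, the 5 lines at the PWK level had 44.89 to 121.36 FPKM, IL-1052 had 20.5 FPKM, IL-4141 and IL-4457 had 1.01 and 0.84 FPKM, and the other 4 had 0.13 to 0.19 FPKM. Of the 21 lines, 6 had a mean of Gm6548 above every A/J line (5.34 FPKM).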

How the results depend on the processing

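Gm13456 was called in every planned setting, with an adjusted p of at most 0.0431 (age as a covariate). The number of genes called was 1 in the reported comparison. DESeq2 called 52 genes (edgeR 1), the 14 mice with line as a random block gave 2, leaving out pseudogenes gave 0, and leaving out a line gave 1 to 4. The 4 were found without IL-1452, 3 without IL-2126 (Gm13456, Gm6457 and Ces1g) and 2 without IL-2156 (Gm13456 and Ces2h). For isoform ratios the number called was 0, and it was 2 without a minimum of fragments and 0 to 3 on leaving out a line, with 3 without IL-2126 and 2 without IL-1452. Within 5 Mb of Gsta2, DESeq2 called 1 gene (Lysmd2) and the other methods 0. The number of genes without overlap was 3 near Gsta2, 7 within 10 Mb, 5 without an expression filter, 5 with TPM, and 3 to 5 on leaving out a line, with 5 without IL-2126 or IL-2011. The number of isoforms without overlap was 7, and 8 to 11 on leaving out a line, where 3 lines against 4 overlap less easily. With age as a covariate the Gsta2 isoform ENSMUST00000034902 differed by 5.02 points and ENSMUST00000125479 by -4.59 points, neither past the threshold. On leaving out a line the 2 differed by 3.4 to 4.62 and by -4.49 to -3.27 points with a two-sided exact permutation p of 0.0571, the smallest that 3 lines against 4 allow. ENSMUST00000129247 changed sign, with -0.19 to 0.18 points (0.18 without IL-1452, 0.10 without IL-3912). Gsta1 changed sign with edgeR (-0.16) and on leaving out a line (-0.46 to 0.41, negative without IL-2126, IL-2011 and IL-3912). The sum of Eef1a1 and its copies, most of which is Eef1a1, gave -0.019 on the log2 scale in place of the 6.33 of Gm13456. Gm6548 passed without IL-1452, at 3.75. For single genes, 182 values kept their direction and their side of the threshold, 5 were counted as reversed and 1 passed. The 5 include the sum of Eef1a1 and its copies set against Gm13456, which is not a value of a single gene. No paired analysis applied, because the 2 groups are made of different lines. The shares of the Gsta2 isoforms rest on as few as 122.9 fragments in a mouse.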
